A study of Mus musculus with 24 samples.

Results

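The integrated stress response factor Atf4 was knocked down in S/S lung adenocarcinoma cells, and the effect on autosomal genes is described here from 8 of the study's 24 RNA-seq libraries. The S/S shAtf4 group (4 libraries, labelled as Atf4 knockdown and treated with an Atf4 shRNA) was set against the S/S shControl group (4 libraries, labelled WT and treated with a scramble shRNA). All 8 came from cultured primary mouse lung tumour cells, and per the series' design text the tumour cells had been isolated by sorting as GFP-positive and CD45-negative. S/S cells carry eIF2α with its phosphorylated serine intact, so both groups can phosphorylate eIF2α. The samples were taken by their labels, and the genes were all those on the 19 autosomes. Of 37296 autosomal genes in the deposited count table, 14224 had enough counts to be tested. The libraries of the knockdown carry the number 1 after the target's name, which reads as 1 hairpin, and a second hairpin was not analysed here. The labels give no age, sex or animal and no word on whether a group's 4 libraries were grown separately, so p-values measure only the spread between these samples, which may be technical.

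ATF4 is a basic leucine zipper transcription factor. When eIF2α is phosphorylated, general translation falls but the Atf4 mRNA is translated more, because short upstream reading frames hold it back under other conditions. As a dimer with C/EBP family members, ATF4 binds composite C/EBP-ATF elements in genes for amino acid synthesis, amino acid uptake, one-carbon metabolism and stress signalling, and tumours use it to withstand shortage of nutrients and mitochondrial faults.

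Total counts, in units of 1e6, were 14.1, 17.5, 23.4 and 59.9 in shAtf4 replicates 1 to 4, and 70.9, 64, 26.6 and 17.5 in shControl replicates 1 to 4. The replicate 4 library of each group stood apart from the other libraries on the first principal component, at 36.1 in shAtf4 and 46.0 in shControl, against -20.6 to -5.47 in the other 6. The comparison was therefore fitted both without the replicate number and with it as a block, and a gene is said to have risen or fallen in both fits where it passed an adjusted p of 0.05 (edgeR's quasi-likelihood test, Benjamini-Hochberg) with the same sign in each. Of 878 different members of the gene lists tested, 308 passed with the block and 18 without it. Over all 14224 autosomal genes tested these were 2883 and 73. The lists were chosen with earlier results of these data known. A list's share of calls above that of all autosomal genes is therefore partly set by this choice and is not independent evidence. A gene given with the block alone did not pass without it: the 140 such genes chosen by rule had adjusted p of 0.0505 to 0.906 there. In bulk RNA fewer cells of a type and less RNA per cell cannot be told apart. Genes of the tumour epithelium were present in all libraries, with Krt8 at 1690 to 2760 CPM (counts per 1e6 after TMM scaling) in shAtf4 and 1560 to 2920 CPM in shControl, and Epcam at 28.6 to 41.3 CPM in shAtf4 and 23.8 to 42.6 CPM in shControl. Nkx2-1, the lung lineage factor, had no count in any library, and the surfactant gene Sftpc had counts only in shAtf4 replicate 4 (0.0698 CPM), so a lung identity could not be read from these markers. Ptprc, which encodes CD45, had no count in any library. Of 21 leukocyte markers 7 had no count in any library, and the list summed to 24.3 to 50.9 CPM in shAtf4 libraries and 27.2 to 81.6 CPM in shControl libraries, most of it from Cd14. Of 14 autosomal fibroblast markers 4 had no count, and the sums were 8.34 to 24.7 CPM in shAtf4 and 10.8 to 42.6 CPM in shControl. Of 14 endothelial markers 3 had no count, and the sums were 32.5 to 39.6 CPM in shAtf4 and 38.0 to 48.6 CPM in shControl, most of it from Flt1. The Y-linked gene Ddx3y measured 0.645 to 1.34 CPM in shAtf4 and 44.4 to 53.5 CPM in shControl, and Uty, Kdm5d and Eif2s3y were likewise lower in all shAtf4 libraries. The 2 groups thus differ in a chromosome that the hairpin does not target, and a difference between the cell populations cannot be told apart from the effect of the knockdown in any result below.

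Knockdown was first checked on its target. In the shAtf4 libraries Atf4 mRNA, from a gene at 80255184 to 80257545 of chromosome 15 (GRCm38.p6), stood at 302, 237, 319 and 225 CPM in replicates 1 to 4, and 565, 835, 818 and 498 CPM in shControl. All knockdown libraries lay below all controls, and 39.9% of the mRNA remained. The fall was 1.33 on the log2 scale without the block (SE 0.197, adjusted p = 0.0327) and 1.31 with it (SE 0.155, adjusted p = 0.00431). Without the block the call rests on all libraries but 1: leaving out any library other than shControl replicate 4 ended it (adjusted p up to 0.131).

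Without the block 21 autosomal genes were higher in shAtf4 (0.148% of those tested) and 52 were lower (0.366%), and 1507 had an unadjusted p under 0.05. With the block 1475 were higher (10.4%) and 1408 lower (9.9%), of which 70 rose and 337 fell at least 2-fold. In both fits 21 rose (0.148%) and 51 fell (0.359%), and Ndrg1 was the one gene lost with the block. All 72 had shAtf4 libraries that did not overlap the shControl libraries. Over all 14224 autosomal genes tested, 468 lay above and 498 below in this way. The 15 largest rises and 15 largest falls named below were chosen only where the groups did not overlap. For those genes a lack of overlap was set by the rule and is no further evidence. Of the 72, 54 changed at least 2-fold. Without the replicate 4 libraries of both groups the blocked fit called 1897 genes higher (13.3%) and 1758 lower (12.3%), and all 72 passed with and without the block there too. Single libraries carried many of the calls made without the block: leaving out 1 library gave 2 to 182 higher and 7 to 333 lower genes, with the lowest counts without shAtf4 replicate 2 and the highest without shControl replicate 4. Of the 38 genes chosen by rule that passed without the block, Wnt5a, Gas6, Kank1, Peg10, Arhgdib and Nectin3 kept their calls whichever library was left out.

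**Figure D1:**
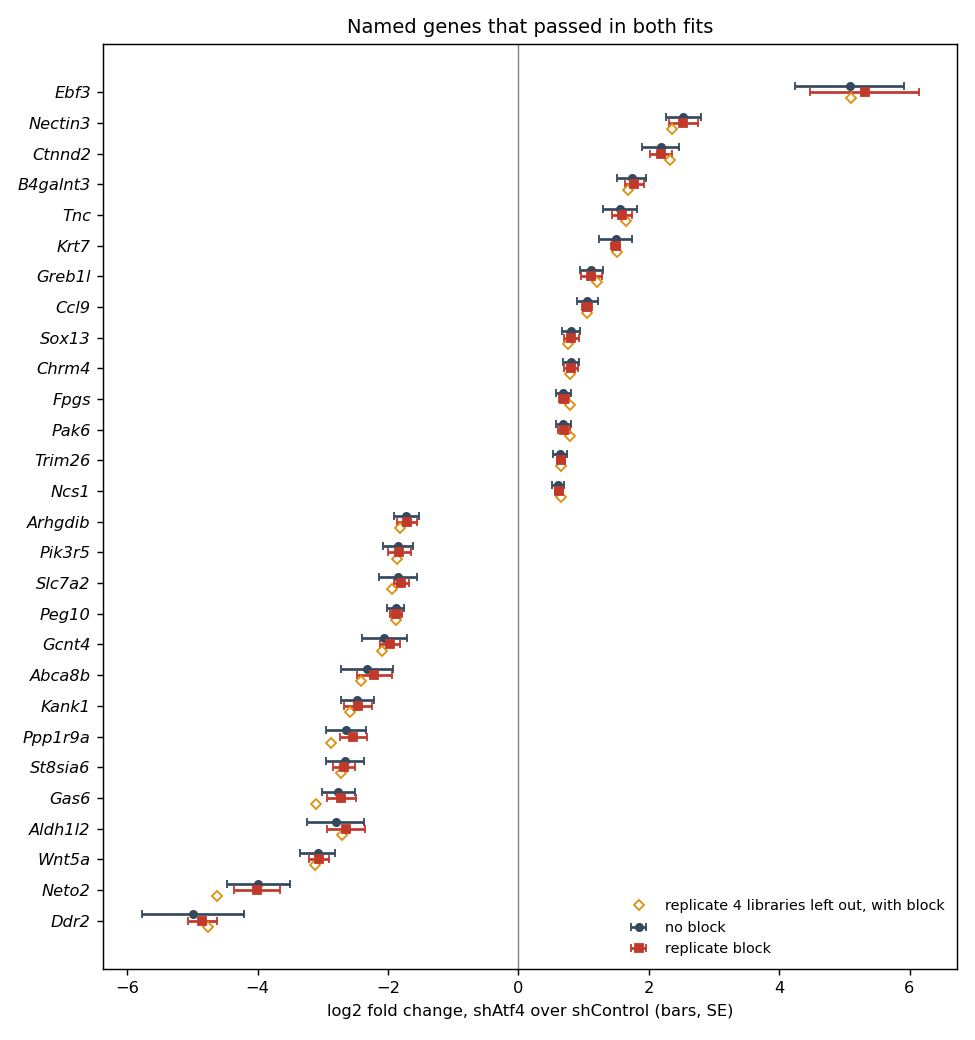
Log2 fold changes of 28 genes from among the largest rises and falls in both fits, shAtf4 over shControl, without the block (circles, SE bars), with the replicate block (squares, SE bars) and with the block after both replicate 4 libraries were left out (open diamonds). The estimates lie close together, from Ddr2 at -4.99, -4.85 and -4.76 to Ebf3 at 5.08, 5.31 and 5.10.

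Most enzymes of amino acid synthesis and one-carbon metabolism linked to ATF4 fell with the block, against 9.9% of all autosomal genes. Of 17 tested, 12 fell and 0 rose with the block by edgeR (at an unadjusted p under 0.05 1 was higher, and DESeq2 called 12 lower and 0 higher), 1 fell in both fits, and the list median was -0.34 on the log2 scale, against 0.00 over all autosomal genes. Aldh1l2, the mitochondrial enzyme that oxidises 10-formyltetrahydrofolate, measured 12.1, 14.9, 16.1 and 8.19 CPM in shAtf4 replicates 1 to 4, and 55.5, 175, 77.5 and 46.4 CPM in shControl. The groups did not overlap, as the naming rule required. Aldh1l2 fell in both fits, by 2.80 without the block (SE 0.436, adjusted p = 0.0357) and by 2.64 with it (adjusted p = 0.00981). With the block and replicate number 1 or 3 left out of both groups its adjusted p was 0.0724 and 0.0519. Cth, which encodes cystathionine gamma-lyase, the enzyme that makes cysteine from cystathionine, measured 26.6, 32.4, 35.7 and 19.9 CPM in shAtf4, and 84.0, 264, 160 and 66.4 CPM in shControl. Each knockdown library was below the lowest control. The adjusted p was 0.0598 without the block (log2 fold change -2.33), and Cth fell by 2.16 with it (adjusted p = 0.0216, and 0.0514 without replicate 4, which ended the call). The alanine aminotransferase gene Gpt2 fell by 1.02 with the block (adjusted p = 2.52e-07, and 0.575 without it).

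Asparagine synthetase and the serine pathway moved less. Asns measured 225, 357, 433 and 131 CPM in shAtf4 and 288, 579, 487 and 191 CPM in shControl, so the groups overlapped, although each shAtf4 library was below the shControl library of the same number. It fell by 0.44 with the block (SE 0.0742, adjusted p = 9.46e-04) and did not pass without it (adjusted p = 0.799). Psat1, the phosphoserine aminotransferase, measured 252, 279, 337 and 202 CPM in shAtf4 and 298, 393, 413 and 253 CPM in shControl, and it fell by 0.34 with the block (adjusted p = 6.43e-04). Phgdh, which encodes the first enzyme of serine synthesis, measured 502 to 630 CPM in shAtf4 and 488 to 695 CPM in shControl, and its log2 difference of -0.12 did not pass in either fit (adjusted p = 0.800 without and 0.237 with the block).

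Transporters that bring amino acids into the cell followed the enzymes. Of 9 tested, 8 fell with the block (9.9% over all autosomal genes) and the median was -0.43. Without the block 0 passed by edgeR, although 4 were lower at an unadjusted p under 0.05 and DESeq2 called 1. Slc7a11, the cystine subunit of system xc-, measured 66.8, 48.8, 66.5 and 16.9 CPM in shAtf4 and 179, 231, 178 and 44.5 CPM in shControl. Replicate 4 was low in both groups, and the shControl library of that number lay among the shAtf4 libraries. Slc7a11 fell by 1.62 with the block (SE 0.167, adjusted p = 0.00283) and did not pass without it (log2 fold change -1.68, adjusted p = 0.276), while with both replicate 4 libraries left out it passed in both fits (adjusted p = 4.99e-04 and 0.0188 with the block). The glycine transporter gene Slc6a9 (-0.70, adjusted p = 2.24e-05) and the neutral amino acid transporter gene Slc1a4 (-0.54, adjusted p = 4.29e-05) also fell with the block.

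The stress regulators and secreted factors of the ATF4 programme showed the steepest single falls. Of 21 tested, 16 fell with the block, against 9.9% over all autosomal genes, and the median was -0.53. Higher at an unadjusted p under 0.05 in either fit or by DESeq2 were 0, while 2 fell in both fits (Stc2 and Cdsn). Stc2, the gene of a secreted glycoprotein hormone, was at 0 counts in each of the knockdown libraries, and at 2.93, 6.24, 4.95 and 2.45 CPM in shControl. Against a floor of 3 counts per library it was at least 29.4-fold lower, and it passed in both fits (adjusted p = 0.0125 without the block and 4.38e-07 with it). Fgf21, a hormone secreted under metabolic stress, measured 0, 0.169, 0.0430 and 0.0175 CPM in shAtf4 and 0.990, 3.80, 2.82 and 0.467 CPM in shControl. It did not overlap between the groups, its level was low throughout, and it fell by 5.03 with the block (adjusted p = 3.20e-06) but missed the threshold without it (adjusted p = 0.0529). Chac1, the glutathione-degrading enzyme induced downstream of ATF4, measured 19, 14.8, 25.3 and 11.2 CPM in shAtf4 and 38.3, 65.2, 73.6 and 27.8 CPM in shControl, again with every knockdown library below every control, and it fell with the block (adjusted p = 0.00159), while without it the log2 fold change was -1.55 (adjusted p = 0.111). Cdsn, which encodes corneodesmosin, fell by 0.99 in both fits (adjusted p = 0.0357 and 2.32e-04 with the block).

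Of the 21, 7 had all shAtf4 libraries below all shControl libraries, against 498 of 14224 autosomal genes tested. Trib3, Ddit3 and Gdf15 were not among the 7. Trib3, a pseudokinase that feeds back on ATF4, measured 39.6, 53.4, 57.7 and 21.9 CPM in shAtf4 and 56.9, 168, 118 and 47.3 CPM in shControl, and it fell by 1.09 with the block (adjusted p = 0.0212, and 0.371 without). Without replicate 4 in either group the blocked call on Trib3 ended (adjusted p = 0.0865). Ddit3, which encodes the transcription factor CHOP, measured 12.7, 25.4, 19.1 and 30.7 CPM in shAtf4 and 11.8, 32.2, 25.5 and 52.3 CPM in shControl, higher in the knockdown library of number 1 and lower in those of the other numbers. It fell by 0.39 with the block (adjusted p = 0.0269, and 0.114 without replicate 4). Gdf15, a secreted stress cytokine often induced through ATF4, measured 43.1, 56.7, 42.2 and 47.6 CPM in shAtf4 and 34.6, 62.5, 45.4 and 47.5 CPM in shControl, and its log2 difference was 0.01 with the block (adjusted p = 0.921).

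**Figure D2:**
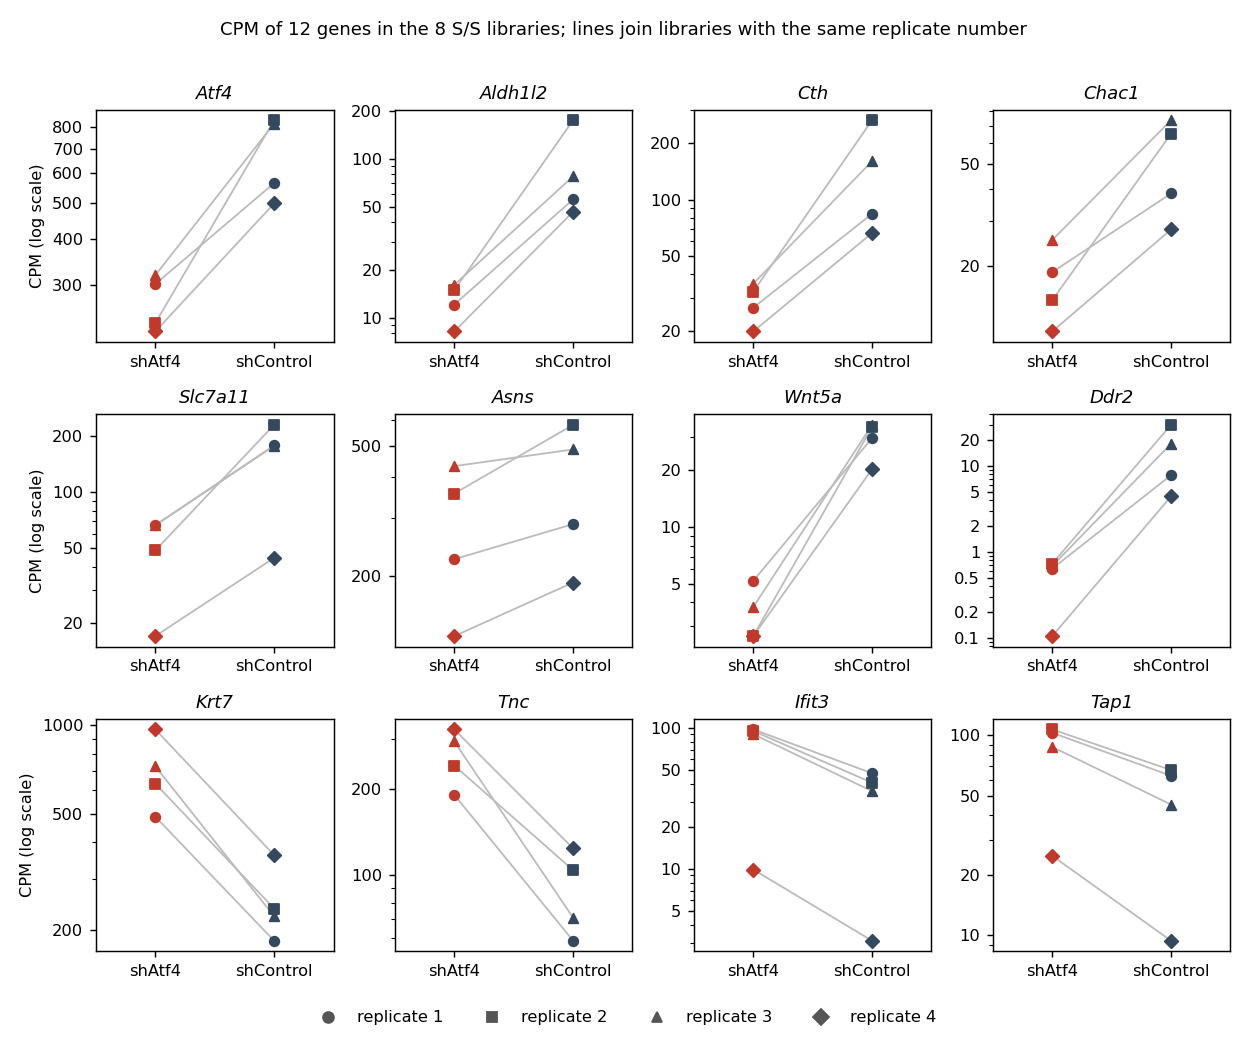
CPM on a log axis for 12 genes in the S/S libraries, with shAtf4 on the left of each panel, shControl on the right and lines joining libraries of the same replicate number. Lines for Atf4, its linked genes, Wnt5a and Ddr2 run up to the control in every pair and those of Krt7, Tnc, Ifit3 and Tap1 run down, while the replicate 4 libraries (diamonds) lie low in both groups for Slc7a11, Ifit3 and Tap1.

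Promoter sequence was read from RefSeq for GRCm38.p6, over a window of 300 bases, 250 before and 50 after each annotated start. The composite C/EBP-ATF element was searched as TGATGNAA on both strands. It was found in 13 of 32 promoters (40.6%) of the genes in the 3 ATF4-linked lists that fell with the block, in 51 of 1076 (4.74%) of all genes that fell with the block, in 21 of 1201 (1.75%) of those that rose, and in 285 of 10354 (2.75%) of all autosomal genes tested that have a window. The share over all 32851 windows was 3.97%. Among the 37 genes with a window that fell in both fits 0 held it. The lists were assembled from genes known to be linked to ATF4, so the high share among them describes the lists. The following stretches are shown because they belong to the named genes with the largest falls that hold the element. Capitals mark TGATGNAA or its reverse complement, and all are written 5′ to 3′ on the gene's strand.
Fgf21: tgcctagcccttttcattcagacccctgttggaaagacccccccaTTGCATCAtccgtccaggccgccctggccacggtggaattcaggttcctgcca
Slc7a11: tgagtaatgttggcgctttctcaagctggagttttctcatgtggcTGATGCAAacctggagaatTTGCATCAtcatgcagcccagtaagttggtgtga
Chac1: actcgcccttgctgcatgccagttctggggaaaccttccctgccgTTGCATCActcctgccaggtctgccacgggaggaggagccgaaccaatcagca
Chchd10: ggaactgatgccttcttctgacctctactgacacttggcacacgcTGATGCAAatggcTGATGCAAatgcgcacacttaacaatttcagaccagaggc
They lie at chr7:45615577-45615674 (minus strand), chr3:50443627-50443724 (minus strand), chr2:119351004-119351101 (plus strand) and chr10:75933000-75933097 (plus strand). Slc7a11 and Chchd10 each hold 2 matches. With the stricter letters TGATGCAA the share was 31.2% of the 32 promoters, 2.32% of those that fell with the block and 0.744% of all autosomal genes tested.

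The regulators upstream of ATF4 and its tRNA-charging arm changed by small amounts with the block. Over all autosomal genes tested 10.4% rose and 9.9% fell there. Of 20 cytosolic aminoacyl-tRNA synthetases, which join amino acids to their tRNAs, 3 rose and 3 fell with the block (median -0.06). The falls were asparaginyl-tRNA synthetase (Nars) at -0.41 (adjusted p = 0.00432 with the block), cysteinyl-tRNA synthetase (Cars) at -0.35 (adjusted p = 2.82e-04) and leucyl-tRNA synthetase (Lars) at -0.34 (adjusted p = 0.0162, and 0.0618 without replicate 4). The rises were Farsa (0.25), Kars (0.24) and Vars (0.19). Of 14 genes for eIF2, its kinases, its phosphatase and its exchange factor, 4 rose with the block, a larger share than over all autosomal genes. Eif2s1, which encodes eIF2α itself, measured 176, 175, 192 and 295 CPM in shAtf4 and 156, 171, 154 and 275 CPM in shControl. Its log2 difference of 0.16 did not pass (adjusted p = 0.0722 with the block and 0.884 without), and replicate 4 was high in both groups. The rises with the block were Eif2b4, a subunit of the exchange factor (0.37), Eif2ak2, the kinase PKR, itself an interferon-induced gene (0.33), Dele1, which relays mitochondrial stress to the kinase HRI (0.26), and Eif2ak1, which encodes HRI (0.19).

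Of 23 genes for protein folding and disposal in the endoplasmic reticulum, 5 fell and 1 rose with the block (median 0.01). Over all autosomal genes 9.9% fell and 10.4% rose. Ero1b, a disulfide-forming oxidase (-0.56, adjusted p = 0.00615), Sel1l, an adaptor of protein disposal (-0.39, adjusted p = 0.00603), and the stress sensor Atf6 (-0.37, adjusted p = 2.71e-04) fell, while Sdf2l1 rose (0.30, adjusted p = 0.0130).

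Chchd10, a small protein of the mitochondrial intermembrane space and the other gene perturbed in the study, measured 12.9, 16.9, 13.2 and 16.1 CPM in shAtf4 and 17.4, 46.9, 24.2 and 40.1 CPM in shControl. Every knockdown library lay below every control, and the controls spread more. It fell by 1.05 with the block (SE 0.155, adjusted p = 0.00192) and did not pass without it (-1.11, adjusted p = 0.176), and its promoter stretch is printed above. Of 19 genes for cristae and mitochondrial dynamics, 7 rose with the block (10.4% over all autosomal genes) and Chchd10 was the 1 that fell. The prohibitin gene Phb (0.33, adjusted p = 0.00271), Chchd2, the closest relative of Chchd10 (0.25, adjusted p = 0.0221), and Stoml2, a scaffold of the inner membrane (0.22, adjusted p = 0.0149), rose.

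Some other nuclear genes for mitochondrial proteins rose by small amounts. Of 78 mitochondrial ribosomal proteins, which build the organelle's own translation machinery, 17 rose with the block, and 36 rose without replicate 4. The list's median log2 ratio was 0.27, 0.15 and 0.17 in numbers 1 to 3 and 0.00 in number 4. Mrps2 rose by 0.48 (adjusted p = 2.40e-04), Mrpl41 by 0.42 (adjusted p = 0.00711) and Mrps18b by 0.36 (adjusted p = 0.0133), and both Mrps2 and Mrpl41 lie on chromosome 2, which is described further on. Leaving chromosome 2 aside, 13 of the 17 remained. Among 71 respiratory chain subunits 8 rose and 1 fell with the block, a share of rises near the 10.4% over all autosomal genes. Ndufs3, a core subunit of complex I, rose in both fits, with 57.3, 60.0, 62.5 and 60.4 CPM in shAtf4 against 41.3 CPM on average in shControl (log2 fold change 0.54, adjusted p = 0.0357 and 3.56e-05 with the block), and it too lies on chromosome 2. Of 12 mitochondrial chaperones and proteases 3 rose with the block, namely Htra2 (0.30), Hspd1 (0.27) and Hspe1 (0.27).

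Metabolic lists outside amino acids differed in their share of falls with the block, which was 9.9% over all autosomal genes. Glycolysis with hypoxia and fatty acid oxidation lay above that share, fatty acid synthesis near it and cholesterol synthesis below it. Of 28 genes of glycolysis and the hypoxia response 6 fell with the block, and 2 were higher at an unadjusted p under 0.05 there. The falls included Eno2, the neuronal enolase (-1.12, adjusted p = 0.0207), Egln3, the oxygen sensor PHD3 (-1.11, adjusted p = 2.10e-06), Aldoc (-0.67, adjusted p = 0.00533) and Vegfa, the endothelial growth factor (-0.58, adjusted p = 1.21e-04). Ndrg1, a hypoxia-induced gene, was lower by 1.05 with the block and did not pass there. Of 20 genes of fatty acid oxidation 4 fell and 1 rose with the block. Cholesterol synthesis gave 1 fall of 23 (Hsd17b7, -0.32), and its median log2 ratio by pair ran from -0.31 in number 3 to 0.30 in number 4. Fatty acid synthesis gave 2 rises, Agpat2 (0.55) and Acaca (0.25), and 2 falls, Mlxipl (-1.44) and Acsl3 (-0.24), of 17.

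Of 21 NRF2 targets and glutathione genes 7 fell and 2 rose with the block (9.9% and 10.4% over all autosomal genes). Besides Slc7a11 these included Nqo1, a quinone reductase (-1.21, adjusted p = 0.00374), and Gsta4, a glutathione transferase (-0.82, adjusted p = 3.19e-06, and 0.0858 without the block), while Osgin1 (0.27) and the glutathione reductase gene Gsr (0.23) rose. Of 41 genes of autophagy and the lysosome 9 fell and 1 rose with the block, among them Map1lc3a, which encodes a protein of the autophagosome membrane (-0.63, adjusted p = 0.00131), the autophagy receptor gene Sqstm1 (-0.43, adjusted p = 7.71e-04) and Hexa, a lysosomal hexosaminidase (-0.37, adjusted p = 0.00162). The rise was the cholesterol transporter gene Npc1 (0.23, adjusted p = 0.0547 without replicate 4).

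Outside the ATF4-linked lists, the falls in both fits included the ligand gene Wnt5a, the receptor gene Ddr2 and the ligand gene Gas6. Wnt5a, the main non-canonical Wnt ligand, measured 5.20, 2.65, 3.78 and 2.65 CPM in shAtf4 and 29.7, 34.0, 34.9 and 20.3 CPM in shControl. The groups were far apart in every pair, with log2 ratios of -2.50, -3.66, -3.19 and -2.91 in numbers 1 to 4, and it fell by 3.08 (SE 0.270, adjusted p = 0.00253, and 3.01e-08 with the block). Of 25 tested Wnt ligands, receptors and feedback genes 5 fell and 4 rose with the block (9.9% and 10.4% over all autosomal genes). Wnt5b, its closest relative, fell by 1.46 with the block at 0.0859 to 0.563 CPM in shAtf4 and 0.643 to 1.36 CPM in shControl (adjusted p = 0.0363), and the receptor gene Fzd6 fell by 0.86 (adjusted p = 0.0297, and 0.0762 without replicate 4). Wnt7a, a ligand made by epithelia, was the opposite, with 0.784, 1.75, 1.98 and 2.32 CPM in shAtf4 and 0.193, 0.358, 0.293 and 0.701 CPM in shControl, and it rose by 2.18 with the block (adjusted p = 3.11e-04, and 0.0797 without). Wnt7b (0.26) and the Wnt effector gene Tcf7 (0.27) rose slightly with the block, and the call on Wnt7b ended without replicate 4 (adjusted p = 0.0507).

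Ddr2, a receptor tyrosine kinase for fibrillar collagen, measured 0.641, 0.732, 0.688 and 0.105 CPM in shAtf4 and 7.83, 30.2, 18.2 and 4.44 CPM in shControl. It fell by 4.99 without the block (SE 0.780, adjusted p = 0.0357) and by 4.85 with it (SE 0.221, adjusted p = 1.34e-09), and replicate 4 was the lowest library of each group. Of 19 collagen chains and collagen receptors 7 fell and 2 rose with the block (median -0.17), against 9.9% and 10.4% over all autosomal genes. Col6a1 (-0.89, adjusted p = 6.52e-07) and Col12a1 (-1.38, adjusted p = 0.0191) were among the falls, and Col7a1, the anchoring fibril chain (0.61, adjusted p = 0.0115, and 0.0618 without replicate 4), and Col5a1 (0.26) rose. Col12a1 measured 1.21, 0.788, 0.344 and 1.5 CPM in shAtf4 and 4.35, 3.61, 1.47 and 1.29 CPM in shControl, and in number 4 it was slightly higher in the knockdown (log2 ratio 0.22).

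Gas6, the ligand of the TAM receptors AXL, TYRO3 and MERTK, measured 0.997, 0.788, 0.988 and 1.41 CPM in shAtf4 and 7.25, 6.89, 9.45 and 5.61 CPM in shControl. It fell by 2.76 (SE 0.251, adjusted p = 0.00280, and 9.77e-07 with the block). Of 16 genes of the TAM and EGF receptor families with their ligands 3 fell and 2 rose with the block. Over all autosomal genes 9.9% fell and 10.4% rose. The other TAM ligand gene Pros1 fell by 0.83 (adjusted p = 0.00383 with the block), the receptor gene Tyro3 rose by 0.56 (adjusted p = 2.40e-04) and the EGF family ligand gene Nrg1 rose by 0.41 (adjusted p = 0.0201).

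Further falls in both fits were of varied function. Neto2, an auxiliary subunit of kainate receptors, measured 0.427, 0.113, 0.0430 and 0.419 CPM in shAtf4 and 3.92, 5.16, 3.66 and 4.27 CPM in shControl (log2 fold change -3.99, adjusted p = 0.0125). St8sia6, a sialyltransferase, measured 34.2, 15.4, 21.4 and 15.1 CPM in shAtf4 and 154, 141, 155 and 88.3 CPM in shControl (-2.66, adjusted p = 0.00951). The cationic amino acid transporter gene Slc7a2, which was not in the ATF4-linked lists, measured 27.9, 18.9, 15.3 and 16 CPM in shAtf4 and 103, 62.2, 71.6 and 41.5 CPM in shControl (-1.85, adjusted p = 0.0362). In each of these the lowest control exceeded the highest knockdown library, as the naming rule required. Ppp1r9a, the actin-binding scaffold neurabin 1 (-2.65), Kank1, a regulator of adhesion and microtubule capture (-2.47), Abca8b, a lipid transporter (-2.32), the glycosyltransferase gene Gcnt4 (-2.06), the regulatory subunit gene Pik3r5 of class IB phosphoinositide 3-kinase (-1.85) and Arhgdib (-1.72), fell with adjusted p of 0.00534 to 0.0480 without the block. Peg10, an imprinted gene derived from a retrotransposon, measured 9.83, 9.74, 8.68 and 10.7 CPM in shAtf4 and 40.0, 30.8, 33.7 and 39.6 CPM in shControl. Its libraries agreed closely within groups, and it had the smallest adjusted p among the named falls without the block (4.28e-04, log2 fold change -1.88, SE 0.129).

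The rises in both fits were led by Ebf3, an early B cell factor family transcription factor active in development. It measured 10.9, 13.3, 13.9 and 11.2 CPM in shAtf4 and 0.0550, 1.06, 0.0733 and 0 CPM in shControl. Replicate 2 alone of the controls had more than trace counts. Ebf3 rose by 5.08 without the block (SE 0.841, adjusted p = 0.0417) and by 5.31 with it (adjusted p = 0.0262), and without shControl replicate 2 the log2 fold change was 7.83. The blocked call on Ebf3 ended when number 1 or number 3 was left out of both groups (adjusted p = 0.132 and 0.118).

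Genes of cell adhesion and the cell surface followed. Nectin3, an immunoglobulin-like adhesion molecule of adherens junctions, measured 4.63, 6.70, 4.86 and 6.07 CPM in shAtf4 and 0.921, 1.32, 0.916 and 0.584 CPM in shControl, and it rose by 2.53 (SE 0.265, adjusted p = 0.00625, and 1.58e-06 with the block). Ctnnd2, which encodes delta-catenin, measured 7.05, 8.73, 9.20 and 11.1 CPM in shAtf4 and 1.38, 2.07, 1.54 and 3.16 CPM in shControl (2.18, adjusted p = 0.0155). Both genes separated the groups completely, which the rule that chose them required. Of 24 nectins, catenins and other adhesion molecules 9 rose and 5 fell with the block (10.4% and 9.9% over all autosomal genes). Mcam was among the rises (1.11, adjusted p = 9.18e-07, and 0.212 without the block) and Alcam (-0.39), Pcdh7 (-0.37) and Icam1 (-0.27) among the falls.

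Krt7, a keratin of simple epithelia, measured 488, 633, 725 and 969 CPM in shAtf4 and 184, 237, 223 and 361 CPM in shControl. Replicate 4 was the highest of each group, and the log2 ratios of the pairs were close to each other, 1.41, 1.42, 1.70 and 1.42. Krt7 rose by 1.49 in both fits (SE 0.253, adjusted p = 0.0442 without the block, and SE 0.0624, adjusted p = 3.30e-10 with it). Of 24 keratins and genes of the transitional alveolar state 6 rose and 2 fell with the block (10.4% and 9.9% over all autosomal genes). Slc4a11, a membrane transporter (0.78, adjusted p = 2.62e-06), and Sfn, the checkpoint protein stratifin (0.56, adjusted p = 0.00134), rose, and Tnip3 (-1.25, adjusted p = 5.95e-05) and the stress gene Nupr1 (-0.90, adjusted p = 5.42e-06) fell.

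Tnc, which encodes the matrix glycoprotein tenascin C, measured 191, 242, 294 and 324 CPM in shAtf4 and 58.8, 104, 70.8 and 124 CPM in shControl, and it rose by 1.56 (SE 0.255, adjusted p = 0.0408, and 0.00166 with the block). Of 29 laminins, integrins and matrix glycoproteins 4 rose and 7 fell with the block (10.4% and 9.9% over all autosomal genes). Itga5, the alpha subunit of the fibronectin receptor, rose in both fits (0.54, adjusted p = 0.0418 without the block), and Lama3, a chain of the epithelial laminin, rose with the block (0.88, adjusted p = 4.11e-04). Itgb8 (-1.32, adjusted p = 0.00900), Fbln1 (-0.80, adjusted p = 2.40e-04) and Itgb5 (-0.28) fell with the block. Of 24 matrix proteases and inhibitors 4 rose and 6 fell with the block, with Adam19 the steepest fall (-1.80, adjusted p = 2.92e-04) and Adam8 the steepest rise (0.66, adjusted p = 4.81e-05).

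Epithelial junction genes included changes in both directions. Cdh1, which encodes E-cadherin, measured 369, 302, 293 and 313 CPM in shAtf4 and 524, 486, 513 and 502 CPM in shControl, and it fell by 0.67 in both fits (SE 0.0913, adjusted p = 0.0202, and 1.80e-06 with the block). Its relative Cdh3, P-cadherin, was lower by 1.83 without the block (adjusted p = 0.0757) and fell by 1.82 with it (adjusted p = 1.03e-05), and the epithelial factor gene Grhl2 fell by 0.44 with the block (adjusted p = 0.00431). In all 7 of 32 rose and 3 fell with the block, against 10.4% and 9.9% over all autosomal genes. The share of falls was thus near that over all genes. The rises included the claudin genes Cldn7 (0.70, adjusted p = 9.37e-05) and Cldn6 (0.48, adjusted p = 2.01e-04) and the membrane protease gene St14 (0.53, adjusted p = 0.00642). Of 18 genes of mesenchymal transition 3 rose and 4 fell with the block. Twist2, a transcription factor of mesenchyme, rose in both fits (1.65, adjusted p = 0.0486), with a mean of 1.20 CPM in shAtf4 and 0.367 CPM in shControl. Ccn2 (0.36) and the intermediate filament gene Vim (0.25) also rose with the block, whereas the transcription factor gene Snai2 (-1.04, adjusted p = 0.0147), the TGF-beta receptor gene Tgfbr1 (-0.42) and Loxl2 (-0.35) fell.

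The remaining named rises were smaller. B4galnt3, a glycosyltransferase, measured 17, 18, 17.9 and 15.7 CPM in shAtf4 and 7.41, 5.16, 4.18 and 3.51 CPM in shControl (1.74, adjusted p = 0.0153). The groups did not overlap, as the naming rule required. Greb1l (1.12), the muscarinic receptor gene Chrm4 (0.81), the transcription factor gene Sox13 (0.81), the kinase gene Pak6 (0.69), Fpgs, which adds the glutamate tail that keeps folates in the cell (0.69), the ubiquitin ligase gene Trim26 (0.64) and the calcium sensor gene Ncs1 (0.61) rose in both fits with adjusted p of 0.0327 to 0.0490 without the block. Chrm4, Pak6, Fpgs and Ncs1 lie on chromosome 2. Sox13, Trim26, Twist2, Itga5 and Abca8b lost their calls without the block under at least 1 other scaling, filter or choice of genes in the fit (adjusted p up to 0.0949 for Twist2 and up to 0.0645 for the others). They were not the only ones. With no filter on low counts Ddr2, Aldh1l2 and Ebf3 also lost theirs (adjusted p = 0.135, 0.148 and 0.158 by edgeR).

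Lineage markers were sparse. Over all autosomal genes tested, 9.9% fell and 10.4% rose with the block. Of 8 tested alveolar type 2 markers 2 fell with the block, the transcription factor genes Cebpa (-0.35, adjusted p = 0.00513) and Etv5 (-0.23, adjusted p = 0.0231). Of 12 alveolar type 1 markers 3 fell, Emp2 (-0.46), Rtkn2 (-0.26) and Vegfa, and Sema3e rose (0.21). Of 17 gut and liver lineage genes 6 fell and 3 rose with the block. Hnf4a, a nuclear receptor of gut and liver, measured 1.71, 0.788, 0.645 and 0.820 CPM in shAtf4 and 5.27, 3.34, 3.37 and 2.57 CPM in shControl, so the groups were separate at a low level. It fell by 1.90 with the block (adjusted p = 4.23e-05) and missed the threshold without it (adjusted p = 0.0618). Trf, the transferrin gene, averaged 143 CPM in shAtf4 and 415 CPM in shControl and fell by 1.49 with the block (adjusted p = 0.0329), while Sox9, a progenitor factor, rose by 0.43 (adjusted p = 4.33e-04). Of 4 tested airway, basal and neuroendocrine markers 3 passed with the block as lower. One was Muc5b, a secreted airway mucin, with a mean of 0.884 CPM in shAtf4 and 8.46 CPM in shControl (-2.91, adjusted p = 3.61e-04).

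With the block, most tested interferon-stimulated genes rose. Of 45 tested, 32 rose with the block (10.4% over all autosomal genes) and 0 were lower at an unadjusted p under 0.05. Without the block 0 passed by edgeR or DESeq2 and 1 was higher at an unadjusted p under 0.05. In the blocked fit 43 had a higher point estimate in shAtf4 (median 0.74). Replicate 4 of both groups had low levels. Each gene's log2 level in replicate 4 was set against its mean over replicates 1 to 3. The median of these differences over the list was -2.20 in shAtf4 and -2.68 in shControl. Ifit3, an antiviral effector, measured 97.5, 95.0, 90.3 and 9.91 CPM in shAtf4 and 47.7, 40.9, 35.6 and 3.10 CPM in shControl. Every pair was higher in shAtf4 (log2 ratios of 1.03, 1.21, 1.34 and 1.66), although replicate 4 made the groups overlap. Ifit3 rose by 1.25 with the block (SE 0.0820, adjusted p = 1.49e-07) but did not pass without it (adjusted p = 0.669). Zbp1, a sensor of left-handed nucleic acids, measured 34.1, 29.8, 24.2 and 5.10 CPM in shAtf4 and 10.4, 10.4, 4.87 and 1.05 CPM in shControl, and rose by 1.86 with the block (adjusted p = 4.42e-07). With both replicate 4 libraries left out 22 of the list passed in both fits and 39 with the block, and Ifit3 (adjusted p = 1.57e-04) and Zbp1 (adjusted p = 0.0111) passed without the block. The list's summed level was 1640 to 6850 CPM in shAtf4 libraries and 858 to 4730 CPM in shControl libraries.

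Antigen presentation moved with it. Of 22 MHC class I genes 16 rose with the block (10.4% over all autosomal genes), and the median was 0.36. Without the block 0 passed by edgeR or DESeq2, and 2 were higher at an unadjusted p under 0.05. Tap1, which carries peptides into the endoplasmic reticulum, measured 103, 107, 87.5 and 25 CPM in shAtf4 and 62.8, 67.1, 45.1 and 9.41 CPM in shControl. It rose by 0.89 with the block (adjusted p = 9.07e-05, and 0.707 without), as did H2-Q6 (0.84, adjusted p = 0.00139) and the immunoproteasome gene Psmb9 (0.82, adjusted p = 0.00487). H2-Q6 belongs to a family of near-identical genes, so its counts are uncertain. Without replicate 4, 17 of the list rose with the block and 3 in both fits.

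The interferon-stimulated response element was searched on both strands of the same windows as GAAA and GAAA separated by any 2 bases. It was found in 15 of 24 promoters (62.5%) of interferon-list genes that rose with the block, in 81 of 1201 (6.74%) of all genes that rose with the block, in 48 of 1076 (4.46%) of those that fell, and in 385 of 10354 (3.72%) of all autosomal genes tested with a window. The list was assembled from genes known to respond to interferon, so the high share among them describes the list. The stretches of the named rises with the largest fold changes that hold the element are shown, with the element or its reverse complement in capitals.
Ifit3: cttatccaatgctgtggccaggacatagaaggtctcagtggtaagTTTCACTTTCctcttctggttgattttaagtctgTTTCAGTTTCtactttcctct
Ifit3b: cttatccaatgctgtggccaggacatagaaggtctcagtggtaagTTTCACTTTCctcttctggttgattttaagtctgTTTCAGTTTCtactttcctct
They lie at chr19:34583328-34583427 and chr19:34607724-34607823, both on the plus strand, and hold the same letters, as these neighbouring genes are near copies of each other. Their counts may be split between them by the authors' counting, and Ifit3b rose by 1.26 with the block (adjusted p = 4.05e-05).

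Among inflammatory genes outside the interferon list, more fell than rose with the block. Of 34 NF-kB targets, chemokines and colony stimulating factors 10 fell and 4 rose with the block (median -0.25). Over all autosomal genes 9.9% fell and 10.4% rose. Saa3, an acute phase protein, measured 0, 0.0563, 0.258 and 0.367 CPM in shAtf4 and 3.37, 1.49, 2.49 and 2.10 CPM in shControl, and it fell in both fits (-3.45, adjusted p = 0.0418, and 1.12e-04 with the block). The cytokine subunit gene Il23a (-1.34, adjusted p = 2.28e-04) and the neutrophil chemokine gene Cxcl3 (-1.15, adjusted p = 0.00608) fell with the block. Ccl9, a myeloid cell chemokine, measured 64.9, 88.4, 71.5 and 99.0 CPM in shAtf4 and 34.6, 36.1, 37.6 and 47.0 CPM in shControl, and it rose in both fits (1.06, SE 0.157, adjusted p = 0.0327). Ccl5 (1.16, adjusted p = 9.80e-07) and Cxcl10 (1.00, adjusted p = 4.70e-07), chemokines that interferon also induces, rose with the block.

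Of 36 genes of S phase and replication 9 rose with the block, with Ccne1, the cyclin that drives entry into S phase (0.54, adjusted p = 0.00283), Mcm10, an origin factor (0.47, adjusted p = 8.21e-05), and the histone chaperone subunit gene Chaf1b (0.26) at the top. Of 36 G2/M genes 2 rose, Plk1 (0.25) and Ube2c (0.18), a share below the 10.4% over all autosomal genes. Mcm10 and Ube2c lie on chromosome 2. The median log2 ratio of the S phase list was 0.24, 0.25 and 0.08 in numbers 1 to 3 and -0.02 in number 4. Of 24 p53 targets and G1 regulators 6 rose and 3 fell with the block (10.4% and 9.9% over all autosomal genes). Trp53inp1 (-1.02, adjusted p = 7.71e-04), Sesn2 (-0.53, adjusted p = 0.00313) and Rb1 (-0.31) were lower and Ccnd3 (0.38, adjusted p = 0.00108) and Gtse1 (0.28) higher. Cdkn2a, the locus of p16 and p19ARF, measured 1.85, 0.338, 0.774 and 0.698 CPM in shAtf4 and 0.756, 0.0933, 0.0733 and 0.0584 CPM in shControl. Replicate 1 was the highest of each group, and at this low level Cdkn2a rose by 2.01 with the block (adjusted p = 0.00580) and did not pass without it (adjusted p = 0.548). Of the cells a sort could have missed, 2 of 4 tested leukocyte markers, both tested fibroblast markers and 4 of 5 tested endothelial markers fell with the block, among them Fcgr3 (-1.26), Cd14 (-0.54), Col1a1 (-0.64), Vwf (-1.96) and Plvap (-0.92), and Egfl7 rose (0.56). The part of other cells in the results above was not tested. The 4 tested non-polyadenylated RNAs gave 0 calls by edgeR or DESeq2 in either fit, and 1 was higher at an unadjusted p under 0.05 in each.

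**Figure D3:**
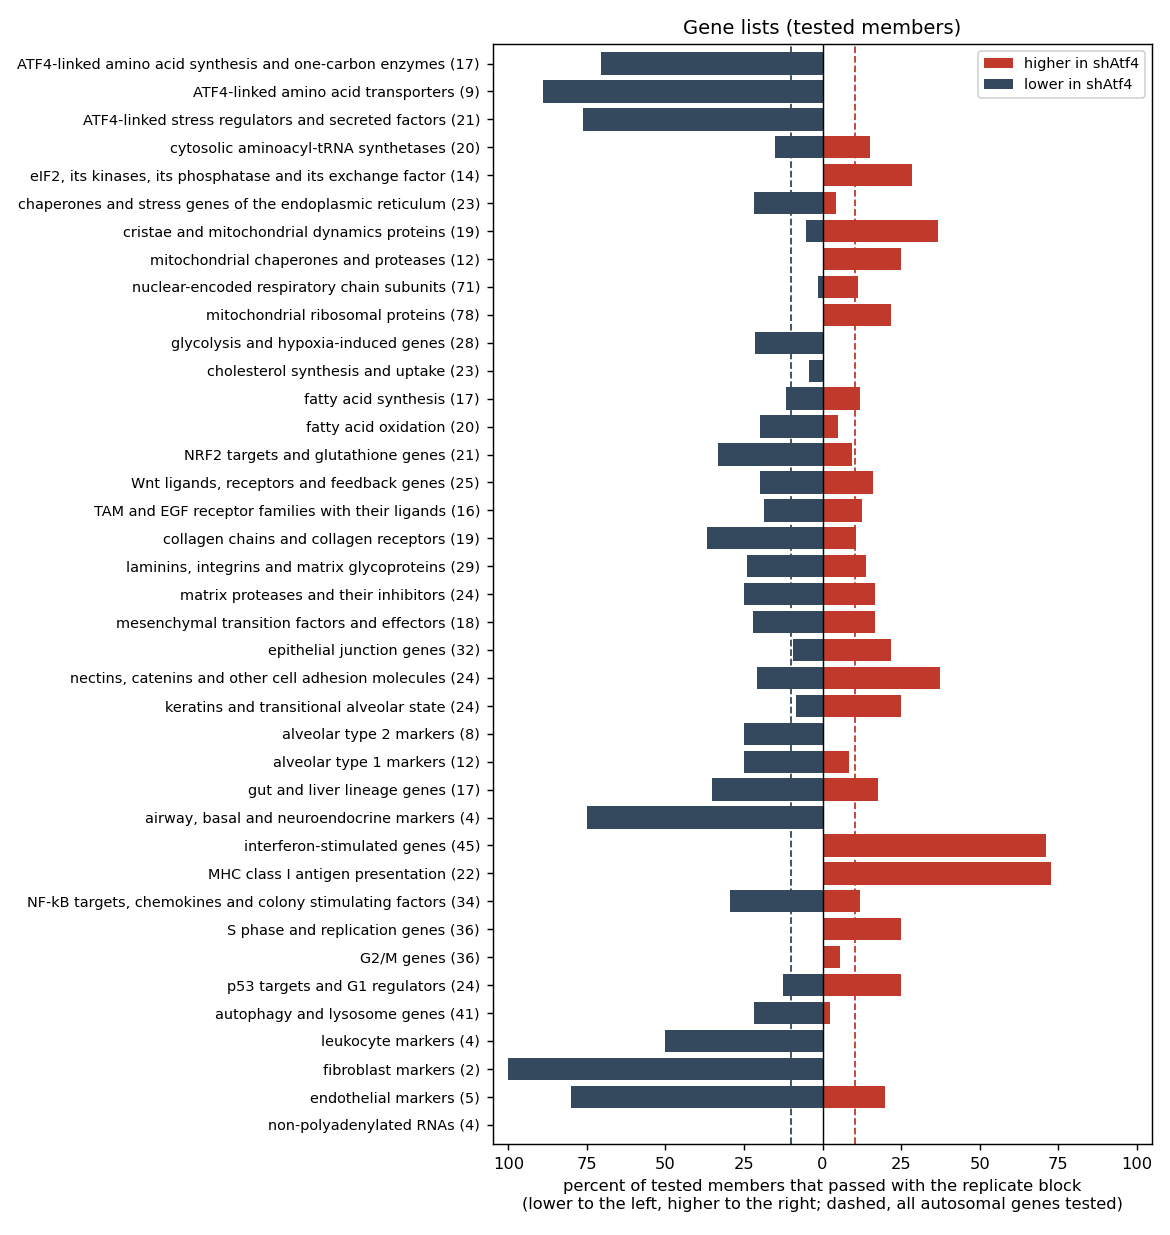
Percent of the tested members of each of 39 gene lists that passed with the replicate block, higher in shAtf4 to the right and lower to the left, with the shares over all autosomal genes tested as dashed lines (10.4% higher, 9.9% lower). The ATF4-linked lists extend to the left alone and the interferon and MHC class I lists to the right alone, while lists with under 6 tested members reach large shares with few genes. Other lists also extend in a single direction, among them glycolysis with hypoxia to the left and the mitochondrial ribosomal and S phase lists to the right.

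**Figure D4:**
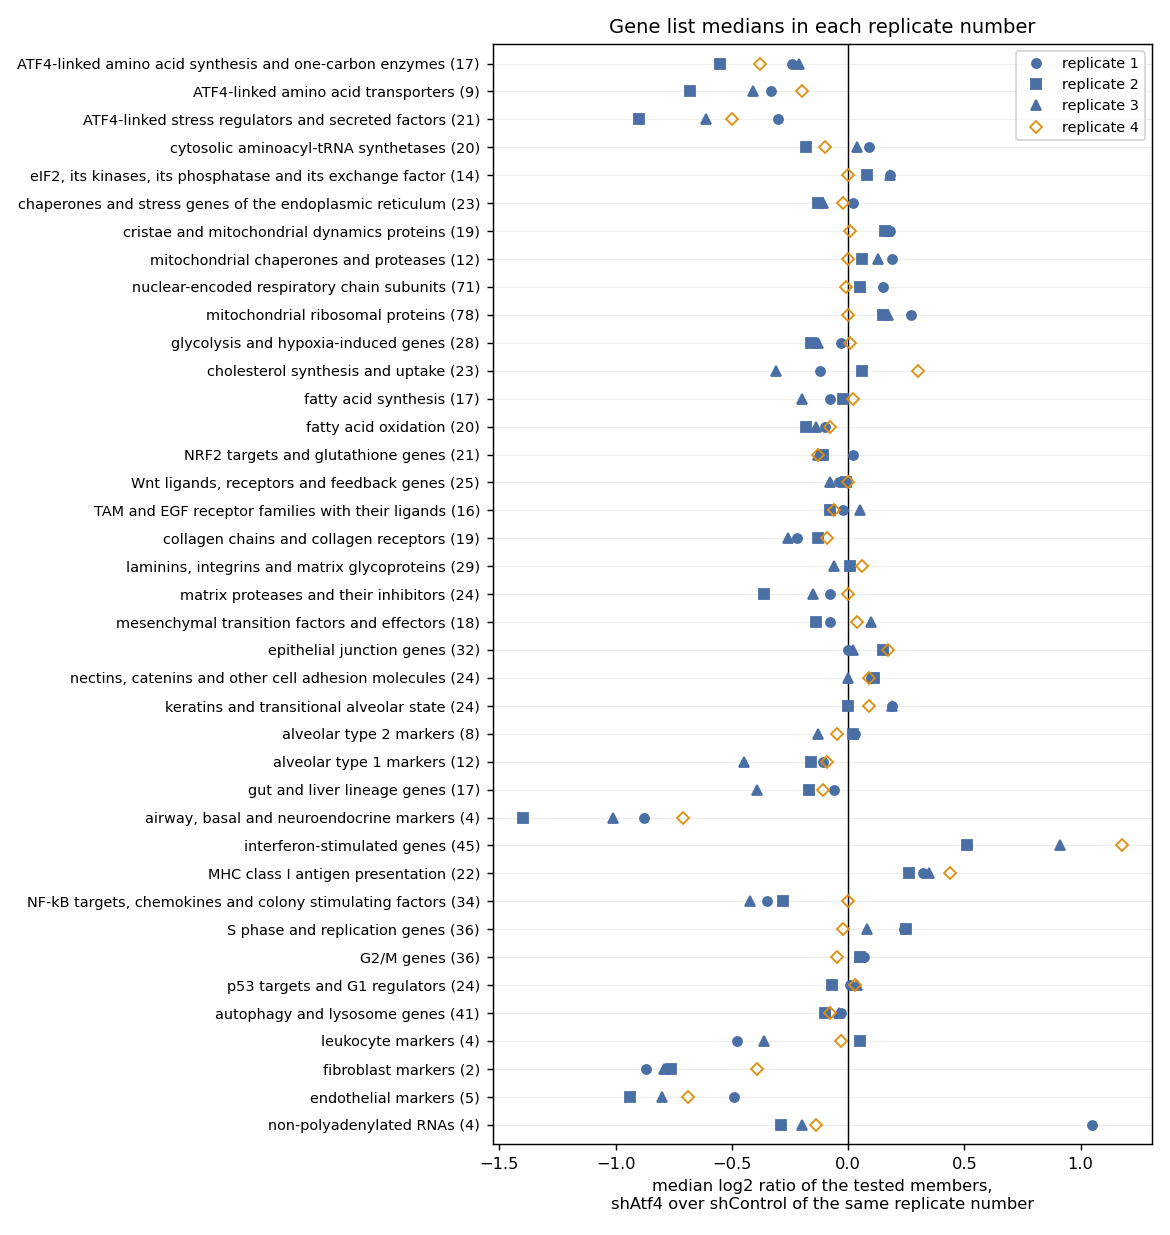
Median log2 ratio of the tested members of each gene list, shAtf4 over the shControl library of the same replicate number, with number 4 as open diamonds. The ATF4-linked lists lie below 0 and the interferon and MHC class I lists above 0 in all 4 numbers, whereas the mitochondrial ribosomal and S phase lists lie at 0.00 and -0.02 in number 4. Some other lists, such as collagen and fatty acid oxidation, also lie below 0 in all 4 numbers.

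The rises were not spread evenly over the chromosomes, a pattern that was noticed in the data and is given with no test. On chromosome 2, 343 of 1172 tested genes rose with the block (29.3%) and 72 fell, against 1132 of 13052 (8.67%) that rose on the other autosomes, where the share ran from 4.58% to 12.9%. The median log2 fold change was 0.13 on chromosome 2 and -0.06 to 0.03 on the other 18 autosomes, and the median log2 ratios by pair for chromosome 2 were 0.12, 0.13, 0.17 and 0.11. It stood above the rest of the genome in every pair, replicate 4 included. Within the chromosome, in bins of 20 Mb, the median was 0.25 from 0 to 20 Mb (34 of 71 genes higher), 0.28 from 20 to 40 Mb (134 of 259) and 0.33 from 80 to 100 Mb (42 of 79), and -0.06 and -0.01 in the bins between 40 and 80 Mb. In the bins from 100 to 200 Mb the median was 0.06 to 0.13. There 29 of 103, 21 of 171, 32 of 170, 29 of 151 and 11 of 43 genes were higher, in order along the chromosome. Of the 21 rises in both fits 7 lie on this chromosome, Chrm4, Pak6, Fpgs, Ncs1 and Ndufs3 as named above, and Mga and Ptpa, which were picked after their values were seen. The rises given above with the block alone also include genes of chromosome 2, among them Agpat2, Tyro3, Col5a1, Vim and Zbp1. Without the genes of chromosome 2 in the fit 12 genes rose and 43 fell without the block, and 1231 rose and 1234 fell with it. Of the interferon rises 30 of 32 lie elsewhere, as do 15 of the 16 MHC class I rises.

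**Figure D5:**
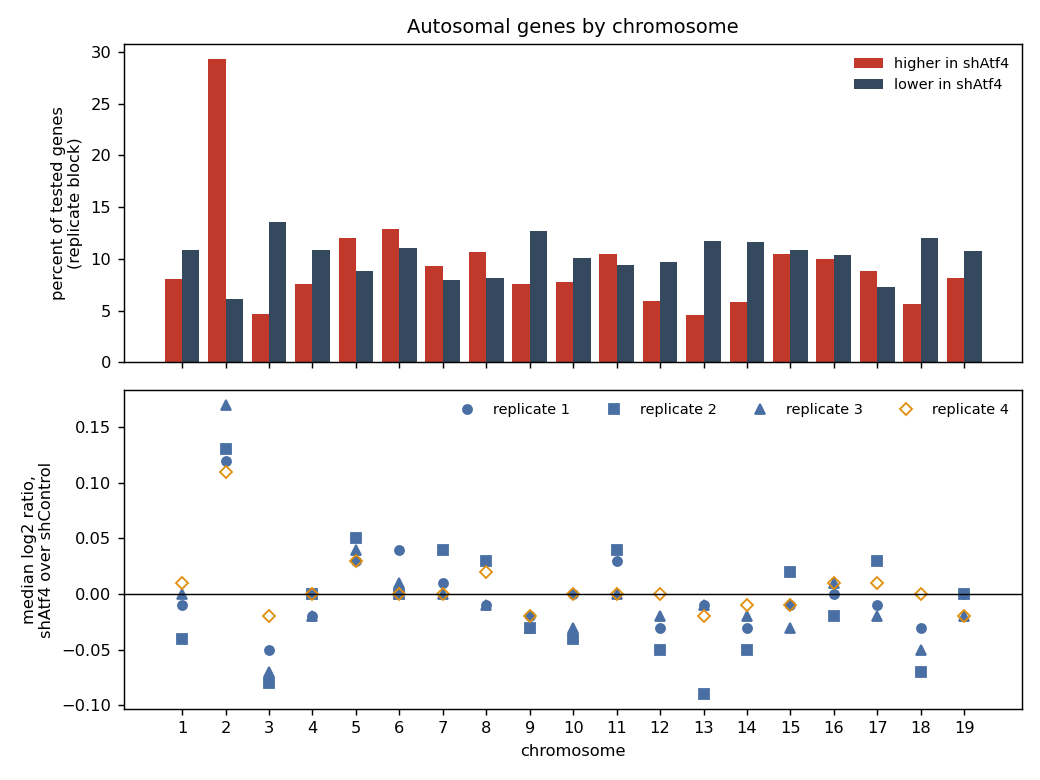
Upper panel, percent of tested genes on each autosome that were higher or lower in shAtf4 with the replicate block. Lower panel, median log2 ratio of the tested genes, shAtf4 over shControl, in each replicate number: chromosome 2 reaches 29.3% higher and lies at 0.11 to 0.17 in all 4 numbers.

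The same genes were then looked up in a separate table, in which A/A cells, whose eIF2α has alanine in place of the serine and cannot be phosphorylated, were compared with S/S cells, both after siControl and 4 libraries each. There 6241 of 17517 autosomal genes were higher in A/A (35.6%) and 6042 lower (34.5%). The tables share no library and were scaled separately, and the difference between the comparisons was not tested. The S/S cells of the tables were also unlike each other. Nkx2-1 averaged 37.4 CPM in S/S siControl and had no count in S/S shControl, Hnf4a averaged 231 CPM in S/S siControl and 3.64 CPM in S/S shControl, and Cdkn2a averaged 209 CPM in S/S siControl and 0.245 CPM in S/S shControl. Ebf3 averaged 11.8 CPM in S/S siControl and 0.297 CPM in S/S shControl, so the directions below are set side by side between unlike S/S cells. Of the ATF4-linked enzymes 14 of 17 were lower in A/A and 1 higher, of the transporters 4 of 9 were lower and 2 higher, and of the stress factors 13 of 20 were lower and 3 higher. Aldh1l2 (-1.54), Cth (-1.59), Chac1 (-1.84), Trib3 (-1.45), Fgf21 (-3.73) and Chchd10 (-2.25) were lower in A/A as they were after shAtf4, with adjusted p up to 7.97e-09, while Slc7a11 (0.06, adjusted p = 0.521) and Psat1 (-0.07, adjusted p = 0.161) did not pass there. Of the interferon list 33 of 44 tested were lower in A/A and 8 higher, and of the MHC class I list 18 of 21 were lower, the opposite of their direction after shAtf4. Of the 51 genes that fell in both shAtf4 fits 44 were tested in that table, and 20 were lower (45.5%) and 19 higher (43.2%) in A/A. Gas6 (-1.67), St8sia6 (-5.29) and Pik3r5 (-4.73) were lower in both, whereas Wnt5a (4.17), Ddr2 (2.30) and Slc7a2 (1.88) were higher in A/A. Of the 21 rises 19 were tested, and 12 were lower (63.2%) and 6 higher (31.6%) in A/A, with Tnc (-4.44), Ebf3 (-4.27) and Nectin3 (-1.77) lower and Krt7 at 0.17.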

How the data were processed

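Total RNA of cultured cells was taken with Trizol and made into libraries with the TruSeq Stranded Total RNA kit for an Illumina NovaSeq, per the labels' protocols (the molecule is labelled polyA RNA). The deposited values are raw counts of reads per gene, 8 shRNA libraries in one table and 16 siRNA libraries in the other. The submitters' processing notes list mm10 and DESeq2 1.24.0. No source used here names the aligner, counter, strand setting or annotation, so overlapping, antisense and near-identical genes are uncertain. All 38937 symbols of the shRNA table matched RefSeq GRCm38.p6, the source of positions and promoters, and 0 columns lacked a sample.

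Counts were tested with edgeR 4.0.16 in R 4.3.3 (filterByExpr, TMM, quasi-likelihood test with robust estimation) over the 14697 genes of the whole shRNA table, with Benjamini-Hochberg adjustment over all of them and a threshold of 0.05. Autosomal genes are reported. The A/A comparison used all 16 siRNA libraries in 1 model. CPM values are per 1e6 counts after TMM scaling, given per library or as mean ± SD. SE is the fold change divided by the square root of F. DESeq2 1.42.0, other scalings and filters, and fits without single libraries were tried. The tests were tested on simulated data.

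Labels number the replicates 1 to 4 without saying what a number shares. Deviations from the group means of same-numbered libraries correlated at 0.450, 0.403, 0.241 and 0.789, so the block was used beside the fit without it. For number 3 a library of another number correlated more (0.279), and without replicate 4 the values were 0.297, 0.135 and 0.0928.

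Genes were named by rule: the 15 largest falls and 15 largest rises among those passing in both fits, with an average log2 CPM of at least 1 and groups that do not overlap, without predicted genes and clones, then for each of 39 lists the members passing in both fits or up to 3 in each direction with the block, and a fixed set around Atf4. The rule gave 181 genes, of which most are named and some are not reported here. The genes, lists and tests were chosen with earlier results of these data known.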

Additional observations from a re-analysis of the deposited data

Results flagged for a closer look

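In groups of 4 libraries, 1 library lay far from the other 3 in 9 of 102 gene and group combinations, where chance alone gives about 1 in 20, and 6 of the 9 were replicate 4 libraries. Eif2s1 was high in replicate 4 of both groups, at 295 CPM in shAtf4 (175 to 192 in the other 3) and 275 CPM in shControl (154 to 171). Ddr2 was low in shAtf4 replicate 4, at 0.105 CPM (0.641 to 0.732 in the others), and Ifit3 was low there, at 9.91 CPM (90.3 to 97.5). In shControl replicate 4 Fpgs (51.8 CPM, 38.5 to 39.4 in the others) and Ncs1 (93.2 CPM, 75.5 to 77.2) were high. Ebf3 in shControl replicate 2 stood at 1.06 CPM (0 to 0.0733 in the others), Hnf4a in shAtf4 replicate 1 at 1.71 CPM (0.645 to 0.820) and Cdkn2a in shControl replicate 1 at 0.756 CPM (0.0584 to 0.0933).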

How the results depend on the processing

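The number of genes called depends on the block and on replicate 4. Of the 38 genes chosen by rule that passed without the block 0 changed sign under any setting run. All 38 had passed in both fits, and the genes that did so had groups that do not overlap. A change of sign was therefore unlikely in advance, and the directions of other genes are not covered by it. The rises and falls without the block (21 and 52) became 1475 and 1408 with the replicate block, 191 and 282 with DESeq2, 1472 and 1215 with DESeq2 and the block, 816 and 870 without the replicate 4 libraries, 1897 and 1758 without them and with the block, and 4 and 16 against a minimum fold of 1.5. Leaving out 1 library gave 2 to 182 rises and 7 to 333 falls, and leaving out number 1, 2 or 3 from both groups with the replicate block gave 880, 914 and 729 rises and 946, 852 and 719 falls. Without chromosome 2, a setting chosen after seeing the data, there were 12 rises, and 1231 rises and 1234 falls with the block. The rises and falls called in both fits (21 and 51) became 190 and 273 with DESeq2, 816 and 867 without replicate 4, and 12 rises without chromosome 2. The cause was not tested. Of the 38 genes 32 lost their call without at least 1 single library, and 9 lost it with no filter on low counts, where Ddr2 (adjusted p = 0.135), Aldh1l2 (0.148) and Ebf3 (0.158) missed by most. The block ended none of the 38 calls, which the choice of genes largely fixed in advance, and over all autosomal genes it ended that on Ndrg1. List medians moved by more than the spread in 11 of 975 values. The uneven depth, 14.1 to 59.9 in shAtf4 and 17.5 to 70.9 in shControl in units of 1e6 counts, limits genes under about 1 CPM.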

Other observations

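Some of the genes that fell in both fits are neighbours, which was noticed after their values were seen and is given with no test. On chromosome 6 Sgce (4674350 to 4747204, GRCm38.p6) and Peg10 (4747306 to 4760517), which are imprinted in the mouse and lie 102 bases apart, and Ppp1r9a (4902872 to 5165661), 142.4 kb further on, all fell. Sgce, which encodes epsilon-sarcoglycan, measured 10.8, 8.50, 8.04 and 8.81 CPM in shAtf4 and 26.6, 33.0, 31.2 and 15.8 CPM in shControl (log2 fold change -1.57, SE 0.226, adjusted p = 0.0303 by edgeR, and 0.00116 with the block). The 4 libraries of the knockdown lay below all controls for each of the 3 genes. The genes around them did not follow to the same extent. Casd1, before Sgce, lay at -0.15 (adjusted p = 0.875), and Pon3 and Pon2, after Ppp1r9a, at -0.17 (0.585) and -0.23 (0.545). Of the 9 genes tested from 1 Mb before Sgce to 1 Mb after Ppp1r9a, 4 fell with the block and 0 rose. The 4 include the 3 genes around which the region was drawn, and the other was Pon2 (-0.24, adjusted p = 0.0455 by edgeR with the block). On chromosome 8 the gene Gm5345 lies 7.3 kb from Slc7a2, and it measured 1.35, 1.18, 1.76 and 1.76 CPM in shAtf4 and 6.12, 6.44, 4.58 and 4.32 CPM in shControl. The annotated spans of the 2 genes do not overlap, and whether their falls are linked was not tested.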
